A study of Mus musculus with 17 samples.

Results

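Insulin-like growth factor 1, its receptor and 6 of its binding proteins were followed through single-cell RNA-Seq libraries of mouse skin and kidney: Igf1, Igf1r, Igfbp2, Igfbp3, Igfbp4, Igfbp5, Igfbp6 and Igfbp7. These 8 genes were chosen by name, of the 30406 genes that all libraries list, and all 8 had unique molecular identifiers (UMIs, counted mRNA molecules) in both tissues. The 17 libraries hold GFP+ cells sorted from mice, labelled as 8 weeks old, that carry PDGFRb-Cre and the Z/EG reporter, in which Cre activity switches on GFP. The study's methods give 8 weeks as the age at which mice entered the experiments. SARATg mice also carry human ZFYVE9 cDNA (SARA) in the Rosa26 locus, driven by the CAG promoter once Cre removes a stop cassette, and SARAWT mice do not. In skin, SARAWT mice received subcutaneous PBS (3 libraries) or bleomycin (20 mg/kg, 3 libraries), and SARATg mice PBS (1 library) or bleomycin (1 library). In kidney, SARAWT mice received vehicle (3 libraries) or intraperitoneal aristolochic acid, AA (5 mg/kg, 3 libraries), and SARATg mice vehicle (2 libraries) or AA (1 library). By the labels the agents were given 3 times per week, for 2 weeks in skin and 3 weeks in kidney, whereas the study's methods describe daily bleomycin injections, so the bleomycin exposure of these mice is not settled. Bleomycin and AA are used to produce fibrosis in skin and kidney.

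IGF1 is a secreted growth factor that signals through the tyrosine kinase receptor encoded by Igf1r. The binding proteins IGFBP2 to IGFBP6 hold IGFs with high affinity in the extracellular space and can either limit or prolong their action, while IGFBP7 binds IGFs weakly and is known as a vascular and matrix protein. Fibroblasts and macrophages are known sources of IGF1 in injured tissue.

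The PDGFRb-Cre driver is also active in leukocytes, and most of the sorted cells were not stromal. Cells were therefore assigned to classes by 10 fixed markers per class, of which a cell needed UMIs of at least 3. Fibroblast-like stromal cells made up 2.26% to 21.3% of the skin cells, and mural cells reached 10 cells in 5 skin libraries. No SARAWT bleomycin library was among these 5, so mural cells could not be compared between treatments in SARAWT skin. These classes were rebuilt from markers and were not matched to the pericyte clusters of the study. Pdgfrb itself was at 30.2 counts per 1000000 UMIs (CPM) or more in skin stromal cells, 362 to 758 CPM in mural cells and under 3 CPM in macrophages of both tissues. In kidney the stromal class reached 10 cells in 1 library (37 cells) and the mural class in 2, so the kidney values below concern tubule, endothelial and immune cells. The skin libraries kept 776 to 6205 cells and the kidney libraries 4623 to 10664. Of the barcodes in a skin library, 0.594% to 55.5% also occurred in another skin library, against 1.66% to 2.13% in kidney. The highest share was in the library labelled SARAWT PBS 2, which kept 776 cells, followed by SARAWT bleomycin 2 (22.1%) and bleomycin 1 (17.6%).

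The genotype check on Zfyve9 went against some labels. The mouse gene was at 614 CPM in the library labelled SARAWT PBS 3, above the 314 and 223 CPM of the SARATg PBS and bleomycin libraries, and the other SARAWT skin libraries had 7.80 to 26.0 CPM. A human ZFYVE9 entry, present in the gene list of 4 skin libraries that are all labelled SARAWT, was at 839 CPM in the library labelled PBS 1. The other 3 had 87.0 to 189 CPM, although mice of this label should lack the human cDNA. The origin of these reads was not tested. The libraries at 614, 314 and 223 CPM of Zfyve9 lack this entry, so their values do not compare directly with those of libraries that have it. Of the other SARAWT skin libraries only bleomycin 3, at 8.84 CPM, lacks it too. In kidney the library labelled SARAWT AA 1 had 163 CPM of Zfyve9 and the library labelled SARATg AA 1 had 19.8 CPM, against 10.3 to 31.4 CPM in the other SARAWT and 92.3 and 89.7 CPM in the other SARATg libraries. Results are therefore given with and without the libraries labelled SARAWT PBS 1 and 3, SARAWT AA 1 and SARATg AA 1 where the call on a member depends on them. In SARAWT skin, leaving out PBS 1 and 3 keeps PBS 2 as the only PBS library, the one with 55.5% shared barcodes. In the Schwann and muscle classes of SARAWT skin the PBS group holds only the libraries labelled PBS 1 and 3, so no value without them could be had there. The library labelled SARATg AA 1 is the only AA library of that genotype, so the kidney comparisons that use it have no value without it.

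The regions just upstream of 4 binding-protein genes are shown because the results turn on these members, as 60 bases read 5′ to 3′ on the strand of the gene from RefSeq (GRCm38.p6). Capitals mark motifs found in a search of both strands, in which no matches overlap. The letters TATAAA were searched as the usual TATA box. The letters TATATA and the longer TATTTAAA were searched as variants of it. The GC box was searched as GGGCGG on its own.
Igfbp3: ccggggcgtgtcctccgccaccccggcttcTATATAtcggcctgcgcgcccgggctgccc
Igfbp4: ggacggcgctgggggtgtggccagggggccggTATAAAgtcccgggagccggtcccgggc
Igfbp5: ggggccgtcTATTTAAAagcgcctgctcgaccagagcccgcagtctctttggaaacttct
Igfbp7: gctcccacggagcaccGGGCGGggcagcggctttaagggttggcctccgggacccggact
These windows lie at chr11:7213924-7213983 (minus strand), chr11:99041184-99041243 (plus), chr1:72874866-72874925 (minus) and chr5:77408046-77408105 (minus), in that order. The Igfbp3, Igfbp4 and Igfbp5 windows each hold 1 TATA-type motif, which starts 30, 28 and 51 bases before the RefSeq transcript start used. The listed position of the Igfbp5 gene reaches chr1:72874884, inside its window, so the 51 bases depend on the start chosen. Of 32851 such windows over all promoters, 3.92% held the usual TATA box, 1.56% the variant of Igfbp3, 0.368% that of Igfbp5 and 18.6% the GC box. The Igfbp7 and Igf1r windows and 1 of the 2 Igfbp2 windows held the GC box, and those of Igf1 and Igfbp6 held none of the 4 motifs. The Igf1 window (chr10:87861051-87861110) lies inside the listed gene, which starts at 87858265. The Igfbp6 and Igf1r windows end at 102144185 and 67952256, short of the listed starts at 102144362 and 67952827. Motifs found or missing in these windows also depend on the start chosen. Igfbp2 and Igfbp5 are neighbours, 5.46 kb apart on chromosome 1, and Igfbp3 lies 3.54 kb from Igfbp1 on chromosome 11.

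Each member had its own distribution over cell classes. In skin, 59.9% of all Igf1 UMIs came from macrophages and 37.8% from stromal cells. The mean level was 178 ± 148 CPM in macrophages and 152 ± 107 CPM in stromal cells (SD, n = 8 libraries), and these neighbours in the order of levels did not differ beyond their spread. Igf1 was near 0 in T, dendritic and mast cells and had no UMI in mural cells. Igf1r had its highest mean level in mast cells (460 ± 129 CPM, n = 7) and neutrophils (258 ± 42.1 CPM, n = 8).

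The binding proteins were mostly stromal or vascular in skin. Stromal cells held 91.0% of the Igfbp6 UMIs, 84.3% of Igfbp5, 81.1% of Igfbp3, 80.7% of Igfbp2, 65.1% of Igfbp4 and 53.2% of Igfbp7, and macrophages held 25.3% of Igfbp4. Most of the other Igfbp7 UMIs came from the Schwann cell class. Igfbp5 and Igfbp7 reached their highest means in mural cells, at 2598 ± 647 and 3870 ± 1991 CPM (n = 5, none of them a SARAWT bleomycin library). Within the stromal class, cells were split by 5 markers per subset, and in the 4 PBS libraries Igfbp6 was highest in the subset named for Pi16, at 2253 to 2687 CPM. The 1 bleomycin library with 10 such cells had 737 CPM in them, below the 1117 CPM of its stromal cells of no subset.

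In kidney, Igf1 again had most of its UMIs in macrophages (73.5%), at 15.9 to 72.6 CPM (51.5 ± 19.7, n = 9). Endothelial cells had 76.9 ± 49.1 CPM of Igf1 (n = 8), and these neighbours in the order did not differ beyond their spread. Endothelial cells (1991 cells, 0.0180% to 10.7% of a library) held 93.3% of the Igfbp3 UMIs, at 557 to 2676 CPM in the 8 libraries with 10 endothelial cells. In the 1 library with 37 stromal cells, these had 1646 CPM of Igfbp3. Proximal tubule cells held 88.8% of Igfbp4, 82.6% of Igfbp7 and 82.6% of Igf1r UMIs, shares that also follow from the number of these cells. Igfbp5 UMIs came mostly from proximal tubule (46.7%) and endothelial cells (41.7%), and its level was 2076 ± 1449 CPM in endothelial cells (n = 8), 332 ± 247 CPM in intercalated cells of the collecting duct and 108 ± 50.1 CPM in proximal tubule cells (n = 9 each). Collecting duct principal cells had 141 ± 149 CPM of Igfbp2 (n = 6) and held 22.7% of its kidney UMIs. T cells held 19.6% of them, and 45.2% lay in cells that the gate left unassigned.

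The classes were put in order by mean log2(CPM + 1), and neighbours were compared within libraries with two-sided exact sign-flip permutation tests. None of the 96 neighbouring pairs in skin and none of the 104 in kidney passed after Benjamini-Hochberg adjustment (smallest adjusted p = 0.136 and 0.203), and 14 and 10 had an unadjusted p under 0.05. The smallest p that a pair could reach was 0.0156 with 7 libraries, 0.00781 with 8 and 0.00391 with 9, and higher with fewer. Examples with the same direction in every library were Igfbp2 in stromal cells above keratinocytes (8 of 8), Igf1r in mast cells above neutrophils (7 of 7), and Igfbp3 in kidney endothelial cells above macrophages (8 of 8).

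**Figure D1:**
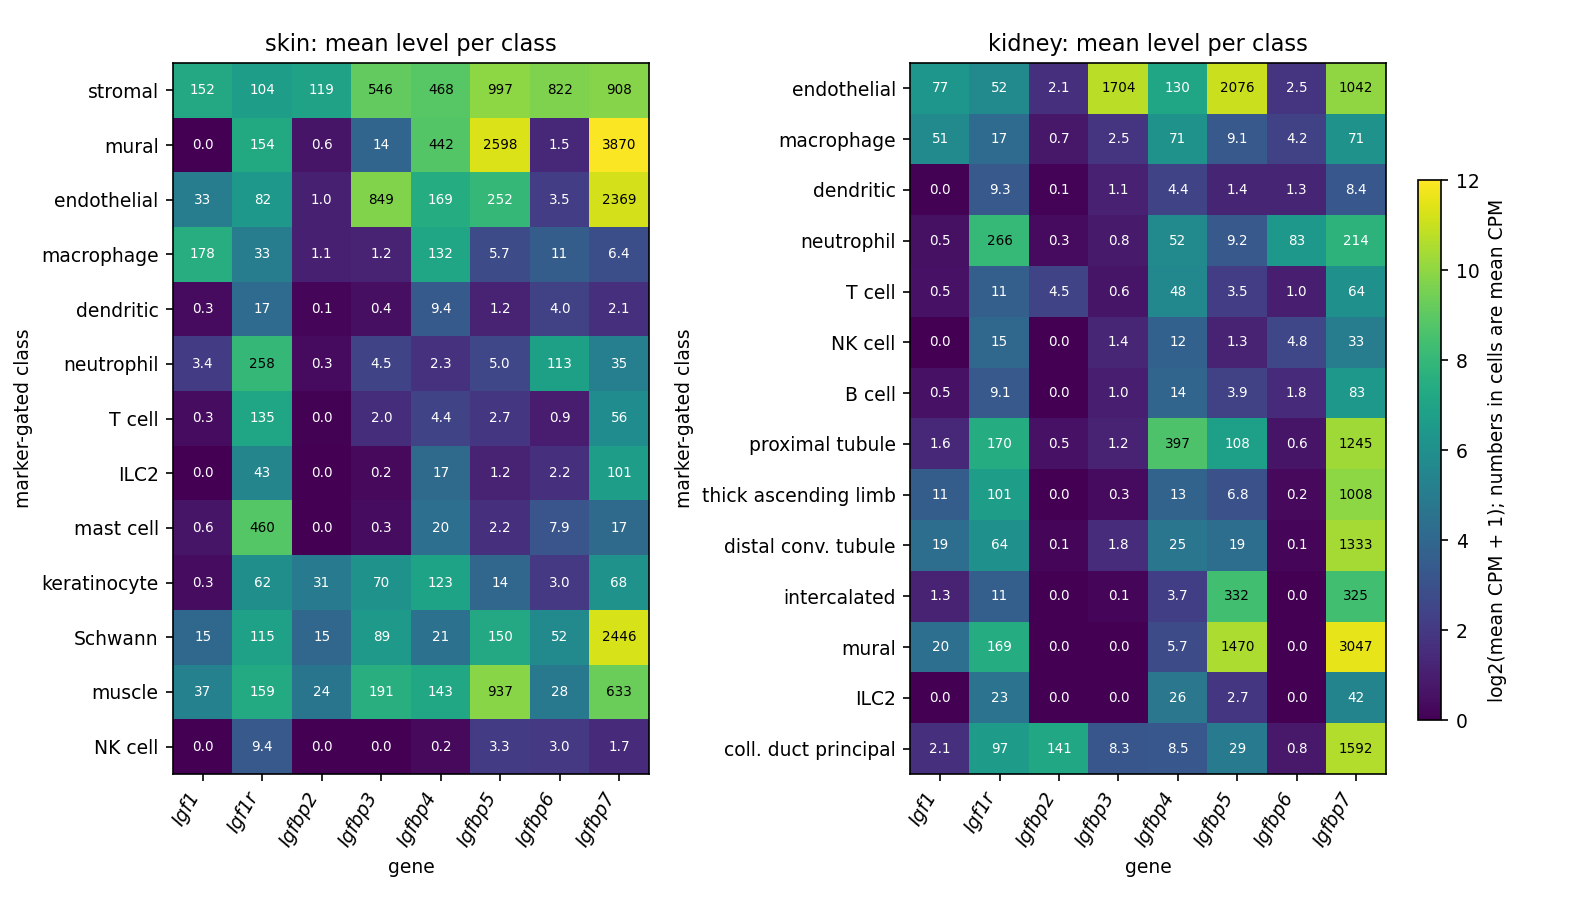
Mean level of the 8 members (columns) in each marker-gated class (rows) with 10 cells in at least 2 libraries, for skin and kidney. Colour is log2(mean CPM + 1) and the printed number is the mean CPM over libraries. Skin Igf1 has its highest means in macrophages (178 CPM) and stromal cells (152 CPM), and kidney Igfbp3 in endothelial cells (1704 CPM).

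The genes whose class means were most like each member were found by Pearson's r of log2(CPM + 1) over 30 class means of both tissues, among 12772 genes, as a description. These means come from the same libraries and so share their depth. Igfbp3 was most like Inhbb (r = 0.95), Slc10a6 (0.91) and Fibin (0.90). Igfbp5 was most like Peg3, Col4a1 and Col4a2 (0.91, 0.91 and 0.90), and Igfbp6 most like Mfap5 (0.86), a microfibril gene that the study names among genes of noncanonical pericytes. For Igf1 and Igf1r the highest were Mcfd2 and Csf1 (both 0.75).

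The first comparison asked how bleomycin changed the members in SARAWT skin. In stromal cells, Igfbp4, a binding protein that mostly holds IGFs away from the receptor, was lower after bleomycin. It was at 1429, 442 and 731 CPM in the libraries labelled PBS 1, 2 and 3, and at 97.1, 228 and 222 CPM after bleomycin. The groups did not overlap, and the lowest of the PBS libraries was the one with the fewest UMIs per cell in skin (median 1264). The difference was -2.23 ± 0.45 on the log2 scale (SE, edgeR quasi-likelihood test, adjusted p = 0.043, n = 3 and 3). This was the only member called among 48 tests of members in 10 classes, at a background of 1.29% of all genes tested (3.65% in stromal cells). Mural cells were not among these classes. Such counts of tests, here and below, leave out the stromal subsets, whose calls are given apart.

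The call on Igfbp4 passed in 9 of 19 alternatives, with its lowest adjusted p by DESeq2 (5.2e-06). Leaving out any 1 library gave a difference of -2.53 to -1.77 and an adjusted p of 0.052 to 0.16, and with the replicate number as a block it was -2.15 (adjusted p = 0.050, above the threshold). Without cells of shared barcodes it was -1.62 (adjusted p = 0.092). Without the libraries labelled SARAWT PBS 1 and 3 it was -1.28 (adjusted p = 0.26), and with libraries 1 and 2 of each group alone, which share 1 gene list, it was -2.44 (adjusted p = 0.12). The direction was the same in all 19 alternatives.

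Igf1, Igfbp5 and Igfbp6 also had lower group means in stromal cells, but did not pass. Igf1 was at 244, 329 and 89.6 CPM in the libraries labelled PBS 1, 2 and 3 and at 66.5, 117 and 78.9 CPM after bleomycin, so that the groups overlapped through PBS 3 (-1.30 ± 0.43, adjusted p = 0.11). DESeq2 called it (adjusted p = 0.023). Without the library labelled PBS 3 the Igf1 difference was -1.67 and passed (adjusted p = 0.047), and without cells of shared barcodes it was -0.55 (adjusted p = 0.64). Igfbp6 was at 861, 1417 and 1126 CPM against 195, 613 and 571 CPM, without overlap (-1.32 ± 0.41, adjusted p = 0.099). It passed in 3 of 19 alternatives, with no filter on low counts (adjusted p = 0.019), with the replicate block (0.022) and by DESeq2 (0.013). Its difference was -1.31 in the Cyp2f2 subset (adjusted p = 0.61), 0.15 in the Cthrc1 subset (0.91) and -0.06 in stromal cells of no subset (0.97), with overlapping groups in the last 2. Igfbp5 was at 903, 1578 and 1125 CPM against 597, 594 and 852 CPM, also without overlap (-0.82 ± 0.27, adjusted p = 0.11, 0 of 19 alternatives), while its levels in the Cthrc1 subset of these cells, given with the subsets, lay the other way. The stromal levels of Igfbp3, which carries IGFs in blood, overlapped between groups (374 to 859 against 246 to 1053 CPM).

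**Figure D2:**
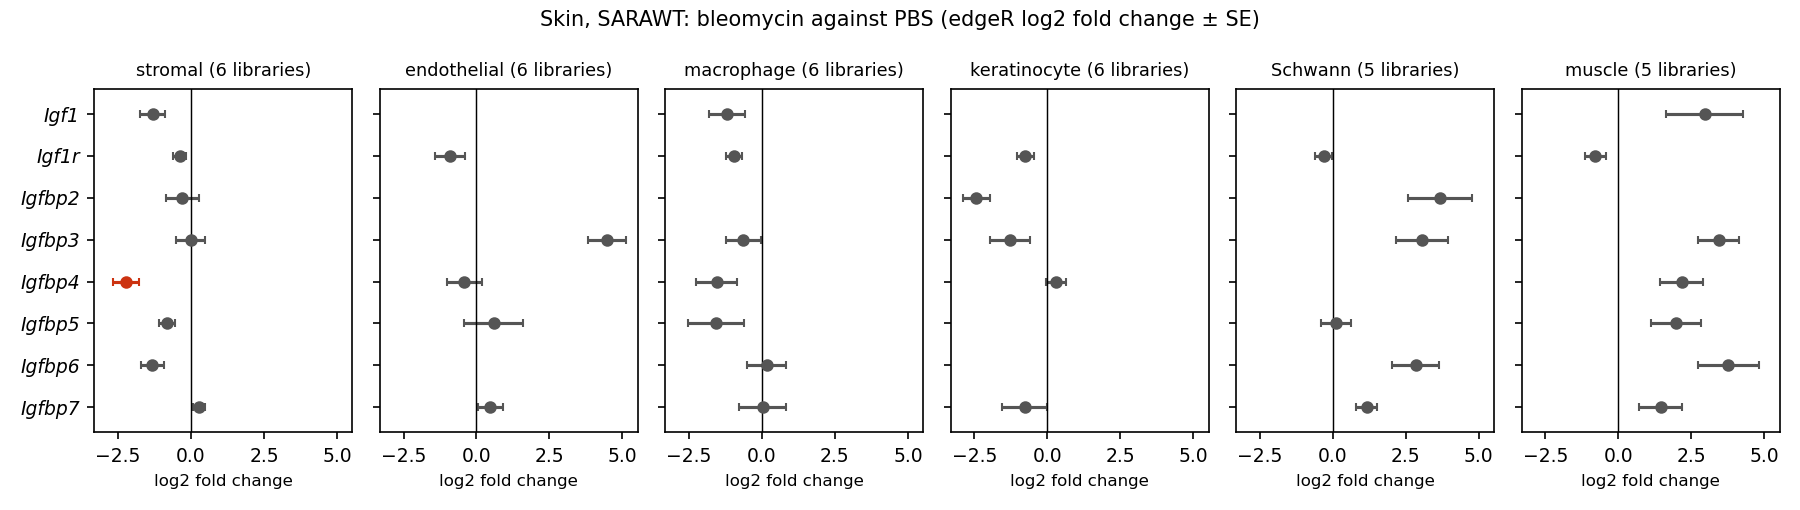
Fitted log2 fold change of each member, bleomycin against PBS in SARAWT skin, in 6 classes, with bars of 1 SE. A missing row means that the gene did not pass the filter on low counts in that class. The red point is stromal Igfbp4 (-2.23), the only one past an adjusted p of 0.05, and endothelial Igfbp3 lies farthest to the right (4.47).

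Macrophages, which held most of the skin Igf1 UMIs summed over the libraries, had an Igf1 level that varied as much within treatments as between them. Igf1 was at 413, 410 and 59.9 CPM in the libraries labelled PBS 1, 2 and 3 and at 142, 147 and 70.6 CPM after bleomycin. Library 3 of each group, counted with another gene list, was the lowest of its group in both. The difference was -1.19 on the log2 scale (adjusted p = 0.53). Igfbp4 in macrophages was at 427, 246 and 42.5 CPM against 95.7, 92.6 and 36.4 CPM, with library 3 again the lowest of each group (adjusted p = 0.47). The replicate block gave -0.85 for Igf1 (adjusted p = 0.23) and -1.19 for Igfbp4 (adjusted p = 0.11), and neither passed. Without the library labelled PBS 3 both passed (adjusted p = 0.036 and 0.044), as they did with libraries 1 and 2 of each group alone (0.0055 and 0.010). With 1000 UMIs drawn per cell (1412, 143 and 1041 PBS and 814, 730 and 1605 bleomycin macrophages were deep enough), 30.7%, 25.9% and 6.34% of PBS macrophages had an Igf1 UMI, against 11.4%, 11.8% and 5.42% after bleomycin, and no T cell had one in any skin library. Without thinning the shares were 59.7%, 42.4% and 18.7% against 32.0%, 30.2% and 18.2%, and 0% to 0.413% in T cells. Igf1r in macrophages was at 37.2 to 56.0 CPM after PBS and 15.1 to 29.1 CPM after bleomycin, without overlap. Its difference was -0.97 (adjusted p = 0.26 in the edgeR fit) and passed in 1 of 19 alternatives.

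Endothelial cells had more Igfbp3 in each bleomycin library. The level was 93.7, 109 and 39.4 CPM after PBS and 3218, 526 and 1283 CPM after bleomycin, from only 10 to 71 cells per library. The groups did not overlap, but the fit gave an adjusted p of 0.063 for a difference of 4.47 ± 0.65. It passed in 10 of 18 alternatives, among them the replicate block (adjusted p = 0.019), the gene list as a covariate (0.013) and DESeq2 (7.5e-11), and the difference was 3.67 to 5.01 throughout. In the SARATg libraries Igfbp3 was at 249 CPM after PBS and 1272 CPM after bleomycin (2.37 ± 0.83, adjusted p = 0.32). The 4 stromal check markers in this class were at 12.1 to 93.7 CPM after PBS and 12.9 to 105 CPM after bleomycin, ranges that overlap. Stromal cells had at least 2697 CPM. The part of stromal RNA in the Igfbp3 difference was not tested.

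Keratinocytes had less Igfbp2 in each bleomycin library, at 39.7, 68.5 and 84.3 CPM against 9.30, 8.84 and 13.5 CPM (-2.45 ± 0.46, adjusted p = 0.11). It passed in 4 of 18 alternatives, the replicate block among them (adjusted p = 0.016). The groups did not overlap, and stromal cells, with most UMIs of this gene, had 107 to 184 CPM after PBS. In the muscle class, a likewise small one of 14 to 67 cells, Igfbp3 was at 0 and 41.6 CPM in the libraries labelled PBS 1 and 3 and at 413, 205 and 322 CPM after bleomycin (adjusted p = 0.073), and passed in 5 of 16 alternatives, the replicate block among them (0.0022).

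In the class gated as Schwann cells, 4 binding proteins (Igfbp2, Igfbp3, Igfbp6 and Igfbp7) had an unadjusted p under 0.05, all with higher values after bleomycin, and none passed after adjustment. Of all 6123 genes tested in this class, 28% had an unadjusted p under 0.05 and 6.94% were called. Igfbp7 was at 851 and 2060 CPM in the libraries labelled PBS 1 and 3 (PBS 2 had under 10 such cells) and at 2592, 3449 and 3269 CPM after bleomycin (1.17 ± 0.36, adjusted p = 0.075). Its difference was 0.63 without the library labelled PBS 1 and 2.09 without PBS 3, where it passed (adjusted p = 0.25 and 0.013). Igfbp3 was at 36.7 and 8.67 CPM against 85.3, 320 and 67.8 CPM, and Igfbp6 at 12.2 and 14.4 CPM against 45.9, 49.6 and 163 CPM. Igfbp2 was at 0 to 6.12 CPM against 16.1 to 35.4 CPM. The PBS levels of Igfbp2, Igfbp3 and Igfbp6 come from 31 and 42 cells and rest on few UMIs, so their differences lie near the floor. Igfbp2 passed in 5 of 13 alternatives, Igfbp3 in 5 of 17, and Igfbp6 and Igfbp7 in 6 of 17 each. The replicate block was among them for all 4, with adjusted p of 0.030, 0.00053, 1.1e-07 and 0.0092. In the Schwann and muscle classes this block rests on replicate numbers 1 and 3 alone, as PBS 2 had under 10 such cells. Whether libraries of the same number deviate together in these classes was not measured. None of the 4 passed without cells of shared barcodes where it could be fitted (adjusted p = 0.20 for Igfbp3, 0.14 for Igfbp6 and 0.19 for Igfbp7). The 4 stromal check markers, of which all were detected, moved with treatment in this class, from 1132 and 1139 CPM to 1640 to 2425 CPM, and the 4 Schwann check markers from 1150 and 1243 CPM to 518 to 673 CPM. Their part in these differences was not tested.

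**Figure D3:**
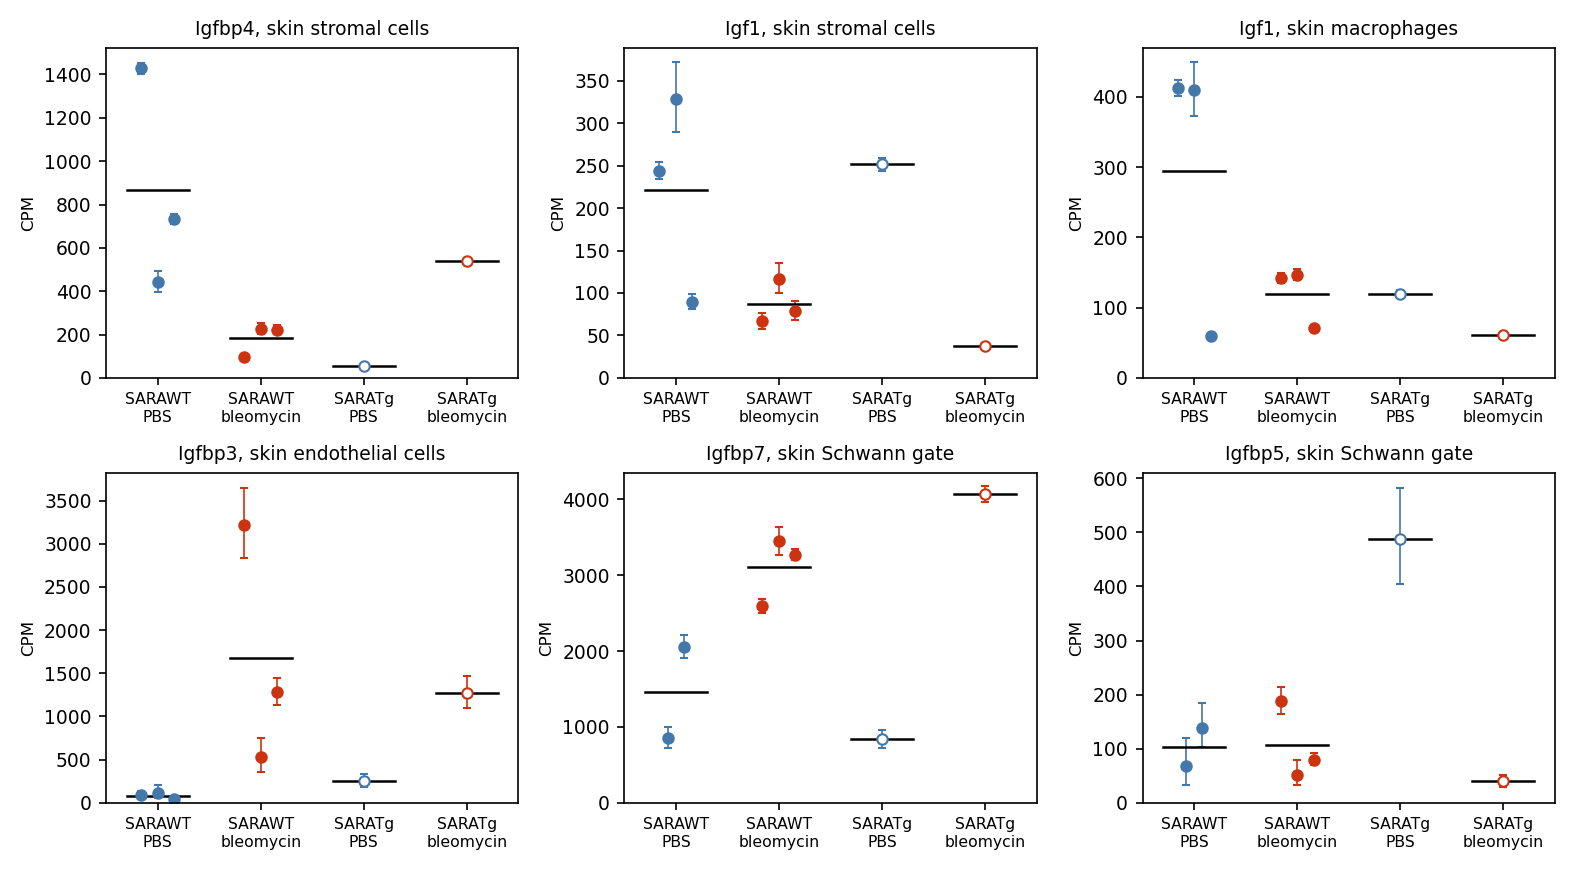
CPM of the members named in the panel titles in each skin library, with the exact 95% Poisson interval of the count (counting error only) and a line at the group mean. Filled points are SARAWT and open points SARATg libraries, blue PBS and red bleomycin. Stromal Igfbp4 runs from 442 to 1429 CPM in the SARAWT PBS libraries and stays under 229 CPM in the SARAWT bleomycin libraries.

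Of the 48 tests, each of 1 member in 1 class, 17 had an unadjusted p under 0.05 (35.4%, background 14.4%), 9 higher and 8 lower. DESeq2 called 7 of these tests and 3.29% of all genes, and the replicate block called 9 tests of members and 3.14% of all genes, against 1.29% in the edgeR fit without the block. The median log2 fold change over the 48 tests was -0.22.

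Summed over all cells of a library, Igfbp2, Igfbp3, Igfbp4, Igfbp5 and Igfbp6 were lower in every SARAWT bleomycin library than in any PBS library. The mean of Igfbp6 was 243 ± 107 CPM after PBS and 50.9 ± 11.5 CPM after bleomycin, and that of Igfbp4 301 ± 245 and 57.5 ± 14.0 CPM (SD, n = 3 and 3, two-sided exact permutation p = 0.1, the smallest that 3 against 3 allows). Over all genes of at least 5 CPM, 16.2% were lower without overlap. Stromal cells made up 16.9%, 19.6% and 7.64% of cells in the libraries labelled PBS 1, 2 and 3 and 7.18%, 9.06% and 2.26% after bleomycin, and in such sums fewer stromal cells and less RNA per stromal cell cannot be told apart.

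The stromal subsets differed in their share of the class and in their levels. The Pi16 subset made up 23.2%, 17.8% and 17.0% of stromal cells after PBS and 5.26%, 11.4% and 2.14% after bleomycin in SARAWT skin, and the subset named for Cthrc1, a gene of collagen-producing fibroblasts, 20.8%, 17.1% and 19.4% against 36.8%, 21.2% and 42.1%. In the Cthrc1 subset Igfbp4 was at 2050, 99.1 and 2156 CPM in the libraries labelled PBS 1, 2 and 3 and at 56.9, 76.0 and 199 CPM after bleomycin (-3.75 ± 0.91, adjusted p = 0.043, background 6.46%). The groups overlapped through PBS 2, with 26 cells. Without the libraries labelled PBS 1 and 3 the difference was 0.30 (adjusted p = 0.88), which turned the sign, and leaving out any one library of the libraries labelled PBS 1 and 3 or bleomycin ended the call (adjusted p = 0.063 to 0.19). Igfbp5 in this subset was at 51.8, 281 and 295 CPM after PBS and 593, 468 and 537 CPM after bleomycin, without overlap and in the other direction to the whole stromal class (1.41 ± 0.55, adjusted p = 0.16). It passed in 1 of 19 alternatives, with no filter on low counts, and was 0.89 to 2.05 throughout. Igf1 and Igfbp3 had fitted differences of -2.15 and -1.95 there (adjusted p = 0.082 and 0.069), and passed in 5 and 4 of 19 alternatives. With 1 library left out they were -2.59 to -1.21 and -2.40 to -1.26.

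**Figure D4:**
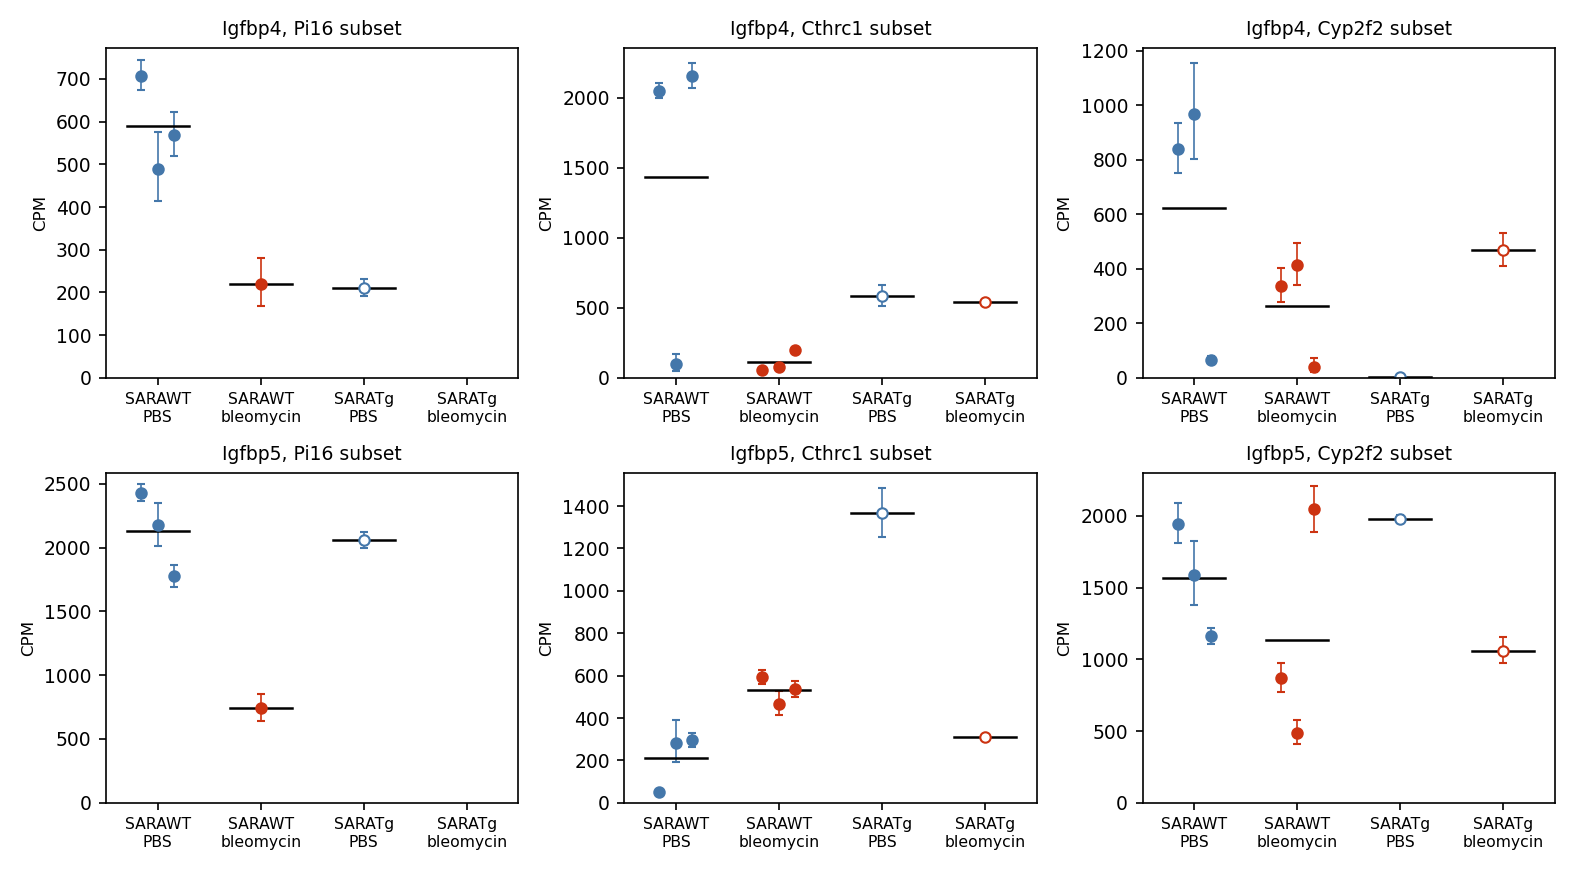
CPM of Igfbp4 (top) and Igfbp5 (bottom) in the Pi16, Cthrc1 and Cyp2f2 subsets of skin stromal cells, per library with at least 10 cells, with exact 95% Poisson intervals and lines at group means. Symbols and colours are as in the plot of skin libraries. In the Cyp2f2 subset, Igfbp4 of the SARATg mice is at 3.93 CPM with PBS and 468 CPM with bleomycin.

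The next comparisons asked how the SARA transgene changed the members and their response to bleomycin. Each SARATg group in skin is 1 library, assumed to vary like the SARAWT groups, and the fits carried the gene list as a covariate. Both SARATg libraries have the list of 31053 features, which among SARAWT skin libraries only those labelled PBS 3 and bleomycin 3 share. With the covariate the genotype fits therefore rest mainly on those libraries, and the Zfyve9 level of PBS 3 went against its label. Genotype and gene list cannot be fully told apart. The counts of tests again leave out the stromal subsets. After PBS, 160 of the 10705 genes tested in keratinocytes were called higher in SARATg and 129 lower. In this class Igfbp2 was at 18.0 CPM in the SARATg PBS library, below the 39.7 to 84.3 CPM of SARAWT (-2.11 ± 0.52, adjusted p = 0.030). It was the only member called of 65 tests, at a background of 0.422%, with 17 at an unadjusted p under 0.05 (background 6.98%) and 1, stromal Igfbp4, called by DESeq2 (0.424% of all genes). Without the library labelled SARAWT PBS 3 the adjusted p was 0.90, without PBS 1 it was 0.059, without the covariate 0.49, and by DESeq2 0.080. In the Pi16 subset Igf1 was called higher in SARATg after PBS (409 against 512, 364 and 82.2 CPM, within the SARAWT range, 2.39 ± 0.38, adjusted p = 0.013, background 0.29%), and the fitted value was 0.04 without PBS 3, 1.01 without PBS 1 and 0.62 without PBS 2, none of them called, as was the case without bleomycin 2 (adjusted p = 0.96). After bleomycin no member was called in 61 tests by edgeR, at a background of 0.204%, or by DESeq2 (0.106% of all genes), and 17 had an unadjusted p under 0.05 (background 4.27%).

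Within SARATg skin, 4 of 65 tests were called between the bleomycin and the PBS library, at a background of 1.81% (7.24% in stromal cells), with 26 at an unadjusted p under 0.05 (background 12%) and 6 called by DESeq2 (2.36% of all genes). As this sets 1 library against 1, with the spread taken from the SARAWT libraries, treatment and library cannot be told apart. Stromal Igf1 was lower, at 37.8 CPM against 252 CPM (-3.12 ± 0.58, adjusted p = 0.029), and so was stromal Igfbp5, at 353 CPM against 1974 CPM (-2.87 ± 0.49, adjusted p = 0.022). Stromal Igfbp4 was 537 CPM against 55.8 CPM (2.88 ± 0.80, adjusted p = 0.062), the opposite sign to SARAWT. The stromal class held different subsets in these libraries: 54.3% of its cells were in the Cyp2f2 subset after PBS and 7.14% after bleomycin, and 3.42% and 63.4% in the Cthrc1 subset. Among stromal cells of no subset (background 5.41%) Igf1 was 45.3 against 208 CPM (-2.57 ± 0.41, adjusted p = 0.0050) and Igfbp5 397 against 1952 CPM (-2.67 ± 0.67, adjusted p = 0.039).

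In the Schwann cell class of SARATg skin (background 5.49%) Igfbp5 was lower after bleomycin, at 39.8 against 488 CPM (-3.44 ± 0.59, adjusted p = 0.00060), and Igfbp7 higher, at 4069 against 834 CPM (2.46 ± 0.44, adjusted p = 0.0010). DESeq2 did not call this Igfbp5 difference (adjusted p = 0.14), and the Igfbp7 call was lost without cells of shared barcodes (adjusted p = 0.073) and without the gene list covariate (0.056). The stromal check markers of this class were at 2129 against 669 CPM and the Schwann check markers at 537 against 1879 CPM, and their part was not tested. SARAWT levels of Igfbp5 in this class overlapped between treatments, at 67.3 and 139 CPM in the libraries labelled PBS 1 and 3 and 188, 52.1 and 79.7 CPM after bleomycin. The difference of the 2 bleomycin effects was -3.50 ± 0.71 (adjusted p = 0.033), the only one called of 61 tests, at a background of 0.246%, with 15 at an unadjusted p under 0.05 (background 5.19%) and 1 called by DESeq2 (0.223% of all genes). It passed in 8 of 15 alternatives, and with 1 library left out it ran from -4.61 (without the library labelled SARAWT PBS 3) to -2.72 (without PBS 1). Without the library labelled SARAWT bleomycin 3 it was not called (adjusted p = 0.38), nor without cells of shared barcodes (0.077), without the gene list covariate (1.0), or by DESeq2 (1.0), whose call was stromal Igfbp4.

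Igfbp4 in the Cyp2f2 subset had the smallest adjusted p of the members for the difference of effects. It was at 839, 967 and 65.3 CPM in the libraries labelled SARAWT PBS 1, 2 and 3, 337, 412 and 41.7 CPM after bleomycin, and in SARATg mice 3.93 CPM with PBS and 468 CPM with bleomycin. Library 3 of each SARAWT group was again the lowest. The SARATg PBS library, with 508 such cells, was below every other library. The fit put SARATg below SARAWT after PBS (-3.87 ± 0.57, adjusted p = 0.026, background 0.0693%) and above it after bleomycin (3.57 ± 0.48, adjusted p = 0.011, background 0.0554%), and bleomycin was above PBS within SARATg (6.32 ± 0.64, adjusted p = 0.00040, background 1.44%). The genotype call after PBS was lost without PBS 1, 2 or 3 (adjusted p = 0.068, 0.055 and 0.073), and the one after bleomycin without bleomycin 3 or PBS 3 (0.075 and 0.11). With at least 30 cells the genotype differences were -6.36 after PBS and 0.03 after bleomycin (adjusted p = 0.73 and 1.0), and without the gene list covariate -6.82 and 0.71 (0.56 and 1.0). Without the libraries labelled SARAWT PBS 1 and 3 they were -4.32 and 3.35 (adjusted p = 0.41 and 0.50). The difference within SARATg was 6.30 with at least 30 cells and 6.32 without the covariate (both adjusted p = 0.28). The difference of the bleomycin effects was 7.43 ± 0.70 (adjusted p = 0.00059, background 0.139%). It passed in 14 of 16 alternatives and not with at least 30 cells (adjusted p = 0.98) or without the gene list covariate (adjusted p = 1.0). For the whole stromal class the difference was 5.05 ± 0.95 (adjusted p = 0.31).

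In kidney, no member was called in any of the 5 comparisons by edgeR. After AA in SARAWT mice 0 of 41 tests in 11 classes were called, at a background of 0.00231%, and 6 had an unadjusted p under 0.05 (background 7.4%), all lower. DESeq2 called 0 members and 263 of all genes tested. Igfbp5 in intercalated cells was at 707, 554 and 65.6 CPM after vehicle and at 42.2, 125 and 178 CPM after AA, where the first is the library labelled SARAWT AA 1 (-1.87 ± 0.60, adjusted p = 0.19). The third vehicle library lay among the AA libraries, and with it as the only control the difference was 0.81. With 1 library left out the difference was -2.37 to -1.41, and it passed in 1 of 17 alternatives. The proximal tubule check markers in intercalated cells were at 231, 330 and 15.1 CPM after vehicle and 95.3, 57.2 and 27.1 CPM after AA. Their part was not tested.

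Igf1 in distal convoluted tubule cells was at 40.2, 24.9 and 17.7 CPM after vehicle and 9.82, 12.6 and 1.92 CPM after AA, without overlap (-1.90 ± 0.52, adjusted p = 0.24). This difference was -2.25 to -1.28 with 1 library left out, and passed in 1 of 16 alternatives. Endothelial Igfbp5 was at 4147, 1416 and 1427 CPM against 1030 and 785 CPM in the libraries labelled AA 1 and 2, as AA 3 had 1 endothelial cell (-1.31, adjusted p = 1.0, and -1.62 to -0.64 with 1 library left out). Igfbp7 in the proximal tubule, where most of its kidney UMIs were, ranged over 819 to 1560 CPM after vehicle and 1225 to 1437 CPM after AA, with overlap.

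**Figure D5:**
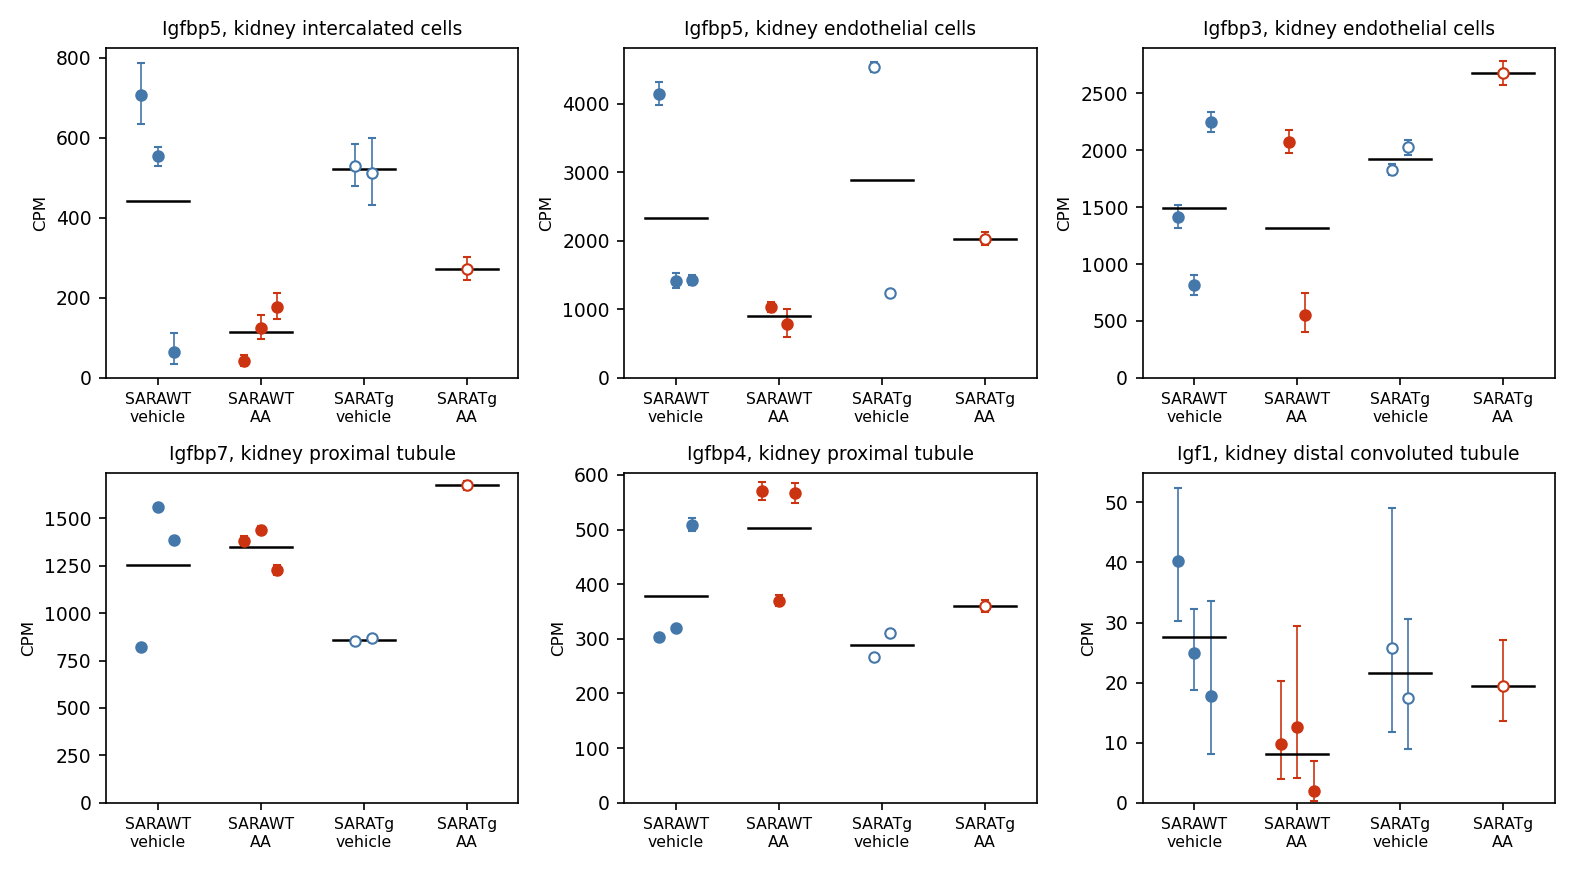
CPM of the members named in the panel titles in each kidney library with at least 10 cells of the class, with exact 95% Poisson intervals and lines at group means. Filled points are SARAWT and open points SARATg libraries, blue vehicle and red AA. Igfbp5 in intercalated cells is at 707 and 554 CPM in SARAWT vehicle libraries 1 and 2 and at 65.6 CPM in vehicle library 3.

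Between genotypes in kidney, 0 of 60 tests were called after vehicle at a background of 0.0198%, with 14 at an unadjusted p under 0.05 (10 higher and 4 lower in SARATg, background 6.48%) and 1 called by DESeq2. The comparisons below that use AA in SARATg rest on the library labelled SARATg AA 1, which had 19.8 CPM of Zfyve9. After AA 0 of 60 were called at a background of 0.00433%, with 8 at an unadjusted p under 0.05 (background 3.35%) and 0 called by DESeq2. Between the library labelled SARATg AA 1 and the SARATg vehicle libraries 0 of 60 were called at a background of 0.0052%, with 11 at an unadjusted p under 0.05 (background 7.19%) and 2 called by DESeq2. For the difference of the AA effects 0 of 60 were called at a background of 0.0191%, with 7 at an unadjusted p under 0.05 (background 5.04%) and 2 called by DESeq2. Over all genes DESeq2 called 180, 37, 506 and 102 in these comparisons. Igfbp7 in intercalated cells after vehicle was at 481 and 913 CPM in SARATg against 330, 235 and 272 CPM in SARAWT, without overlap (1.35 ± 0.31, adjusted p = 1.0). Igf1r in macrophages was at 28.5 and 26.0 CPM against 13.4, 13.9 and 11.7 CPM, also without overlap (1.01 ± 0.20, adjusted p = 0.94). Endothelial Igf1 was at 53.0 and 35.0 CPM against 119, 142 and 96.6 CPM, lower in both SARATg libraries (-1.35 ± 0.61, adjusted p = 1.0).

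The other genes of the pathway (22 listed, such as Igf2, Insr, the docking proteins Irs1 and Irs2, the IGFBP4 protease Pappa and the growth hormone receptor Ghr) were tested in the same fits. Between bleomycin and PBS in SARAWT skin 1 of 95 tests was called higher and 1 lower (2.11%, beside 1.29% of all genes, 3.65% in stromal cells and 6.94% in the Schwann class). Foxo1, a transcription factor that insulin and IGF signalling keeps out of the nucleus, was lower in stromal cells, at 78.3, 77.5 and 68.7 CPM against 24.7, 34.2 and 26.2 CPM (-1.39 ± 0.19, adjusted p = 0.021). In the whole stromal class Foxo1 passed in 12 of 18 alternatives, but not without the libraries labelled PBS 1 and 3 (-1.45) or without cells of shared barcodes (-1.12, adjusted p = 0.12). Outside the 95 tests, Foxo1 was also called lower in the Cthrc1 subset (-1.53 ± 0.36, adjusted p = 0.037, background 6.46%, 9 of 18 alternatives). Pik3r1 was called lower there too (-1.42 ± 0.25, adjusted p = 0.015, 13 of 18 alternatives). Grb10, an adaptor that restrains the receptors, was higher in the Schwann class (1.35 ± 0.29, adjusted p = 0.026), and lost its call without the library labelled PBS 1 or PBS 3 (adjusted p = 0.11 and 0.12).

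Within SARATg skin 2 of 138 tests were called higher and 4 lower between bleomycin and PBS (4.35%, beside 1.81% of all genes, and 7.24% in stromal cells). The lower calls were all in stromal cells: Foxo1 (-1.97), Irs1 (-1.64), Insr (-2.22) and Irs2 (-1.86), with adjusted p of 0.022, 0.037, 0.047 and 0.048. Of 16 alternatives each, Foxo1 passed in 16, Irs1 in 13, Insr in 9 and Irs2 in 8, but all of these still set 1 SARATg library against 1. Treatment and library cannot be told apart in them, and the stromal class held different subsets in the 2 libraries, as given above. In SARAWT stromal cells Irs1 was at 47.3, 35.5 and 26.7 CPM after PBS and 19.5, 24.4 and 14.1 CPM after bleomycin. Insr was at 26.8, 40.7 and 24.9 CPM against 9.74, 22.4 and 11.2 CPM there. Irs2 was at 129, 198 and 179 CPM against 69.9, 104 and 73.1 CPM. The SARAWT groups did not overlap for these genes, and none of them was called. The higher calls within SARATg were Socs2, an inhibitor of growth hormone signalling, in dendritic cells (90.7 against 11.9 CPM, adjusted p = 0.017, and 0.69 without the gene list covariate) and Pappa in the Schwann class (146 against 12.1 CPM, adjusted p = 0.0010). The SARAWT libraries had 32.1, 38.0 and 107 CPM of Socs2 after PBS and 40.0, 29.9 and 55.0 CPM after bleomycin, so that the SARATg bleomycin value lay within the SARAWT PBS range. In the SARAWT Schwann class Pappa was at 73.5 and 26.0 CPM in the libraries labelled PBS 1 and 3. After bleomycin it was at 112, 109 and 107 CPM there, and it was not called. The 12.1 CPM of Pappa in SARATg rest on 3 UMIs from 41 cells. The stromal and Schwann check markers of that class also shifted between the 2 SARATg libraries, as given above, and their part was not tested. After PBS 1 of 138 tests was lower in SARATg (0.725%, beside 0.422% of all genes), Stc1 in keratinocytes. In that class 160 of 10705 genes were called higher and 129 lower. The SARATg PBS library had 0 UMIs of Stc1 there, while the libraries labelled SARAWT PBS 1, 2 and 3 had 4.03, 0 and 44.0 CPM. Stc1 was also the 1 call among 128 tests of the difference of effects (0.781%, beside 0.246% of all genes). For that difference 93 genes were called higher and 10 lower in keratinocytes. The library labelled SARAWT PBS 3 held 254 UMIs of Stc1, against 7 in PBS 1 and 0 in PBS 2, and without it the gene did not pass the filter on low counts, so these calls rest on that library. No pathway gene was called between genotypes after bleomycin or in kidney.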

How the data were processed

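Single-cell libraries (10x Genomics 3′ v3) were made from GFP+ cells. The deposited values are raw UMI counts for each barcode and gene, left without normalization by the authors after Cell Ranger (3.0.2 in the submitters' notes, which also name Seurat 2.3.4 and mm10; other versions stand in some file headers). The 2 gene lists (32286 and 31053 features) were joined by identifier. A cell was kept if it had 200 genes or more and its mitochondrial UMIs did not exceed 20% (skin) or 50% (kidney), and predicted doublets (scanpy 1.11.5, 0.8% per 1000 cells) were left out. UMIs were summed per library and class with at least 10 cells and given as CPM, and since 3′ UMIs count transcript ends they were not divided by length.

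Library totals were 3355217 to 69765525 UMIs in skin and 28660151 to 137093834 in kidney. Intervals cover counting error only. Differences in these sums were fitted with the quasi-likelihood test of edgeR 4.0.16 after filterByExpr and TMM scaling (two-sided, Benjamini-Hochberg adjustment over all genes of a class, threshold 0.05), with DESeq2 1.42.0 as an alternative, and the scripts were tested on simulated data. The groups follow the labels, which do not say that libraries of a group come from separate mice, so p-values measure the spread between libraries. In skin, libraries with the same replicate number deviated together in stromal cells (r = 0.217 to 0.354 in the 3 pairs), macrophages (0.344 to 0.622), dendritic cells (0.119 to 0.520) and all cells (0.184 to 0.592), partly along with the gene list. The ranges reached lower in endothelial cells (0.00901 to 0.179), neutrophils (0.0564 to 0.217) and keratinocytes (-0.0126 to 0.230). The block used these replicate numbers. PBS 1 and bleomycin 2, of different numbers, were at 0.367 in macrophages and 0.373 in dendritic cells, within the ranges of the same-number pairs. In stromal cells the pairs of different numbers were at -0.264 to 0.0186. No pair rule held in kidney. The named genes were the 8 members, called genes of a fixed pathway list, and the 3 genes most like each member. Members, lists and tests were chosen with earlier results of these data known.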

Additional observations from a re-analysis of the deposited data

Results flagged for a closer look

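The difference of the bleomycin effects between genotypes passed its test for 2 members (edgeR quasi-likelihood test of the interaction). Each SARATg group is 1 library whose spread was taken from the SARAWT libraries, so genotype and library cannot be told apart. For Igfbp5 in the Schwann cell class of the skin the difference of effects, SARATg minus SARAWT, was -3.50 on the log2 scale (adjusted p = 0.033, passed in 8 of 15 alternatives, with 1.0 by DESeq2 and 1.0 without the gene list covariate, and -4.61 to -2.72 with 1 library left out), and for Igfbp4 in the Cyp2f2 subset of skin stromal cells it was 7.43 (adjusted p = 0.00059, passed in 14 of 16 alternatives, with 0.98 at 30 cells or more and 1.0 without the covariate).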

How the results depend on the processing

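The counts of members are of tests called, each of 1 member in 1 class and without the stromal subsets. Each is followed by the share of all genes called under the same alternative. For bleomycin against PBS in SARAWT skin (1 called, 1.29%) the count was 7 with DESeq2 (3.29%), 17 with no filter on low counts (2.13%), 2 with a stricter gate (0.767%), 2 with a stricter cell filter (1.22%), 2 with doublets kept (1.06%), 9 with the replicate block (3.14%), 7 with the gene list as a covariate (2.45%), 8 in a fit of all 4 groups (2.33%), 3 with libraries 1 and 2 of each group alone (2.86%), 0 without the libraries labelled SARAWT PBS 1 and 3 (0.00891%), and 0 to 5 with 1 library left out (0.111% to 1.38%). For SARATg against SARAWT after PBS (1, 0.422%) it was 8 with no filter (0.974%), 2 with a stricter gate (0.519%), 2 with a stricter cell filter (0.421%), 3 without cells of shared barcodes (0.487%), 3 with at least 30 cells (0.579%), 2 without the libraries labelled SARAWT PBS 1 and 3 (0.286%), 0 without the gene list covariate (0.0131%), and 1 to 4 with 1 library left out (0.281% to 0.939%). After bleomycin (0, 0.204%) it was 8 with no filter (0.528%), 1 with a stricter gate (0.263%), 2 with at least 30 cells (0.421%), 3 without those libraries (0.513%), and 0 to 2 with 1 library left out (0.205% to 0.454%). Between treatments in SARATg skin (4, 1.81%) it was 6 with DESeq2 (2.36%), 6 with a stricter cell filter (1.57%), 18 with no filter (2.25%), 8 with a stricter gate (1.78%), 8 without cells of shared barcodes (1.80%), 7 with at least 30 cells (2.14%), 15 without those libraries (4.22%), 2 without the covariate (0.557%), and 5 to 11 with 1 library left out (1.32% to 3.86%). For the difference of the bleomycin effects (1, 0.246%) it was 8 with no filter (0.796%), 0 with a stricter gate (0.283%), 0 with a stricter cell filter (0.289%), 0 with doublets kept (0.221%), 2 without cells of shared barcodes (0.408%), 2 with at least 30 cells (0.431%), 2 without those libraries (0.194%), 0 without the covariate (0.00941%), and 1 to 3 with 1 library left out (0.260% to 0.511%).

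In kidney the count was 3 for AA against vehicle in SARAWT with no filter (0.691%), 0 with the replicate block (0.282%), and 0 with any 1 library left out (0.00228% to 1.66%). Between genotypes after vehicle it was 1 with DESeq2 (0.155%), 8 with no filter (0.805%), 1 with doublets kept (0.0115%), and 0 to 1 with 1 library left out (0.0171% to 0.190%), and after AA 4 with no filter (0.458%) and 0 to 1 (0.000948% to 0.112%). Between treatments in SARATg it was 2 with DESeq2 (0.439%), 7 with no filter (0.750%), 1 with a stricter gate (0.0709%), 1 with at least 30 cells (0.0804%), and 0 to 2 with 1 library left out (0.0107% to 0.177%). For the difference of the AA effects it was 2 with DESeq2 (0.0884%), 4 with no filter (0.648%), 1 with a stricter gate (0.0810%), and 0 to 1 (0.00474% to 0.198%). The cause of these changes was not tested. The direction reversed for Igfbp4 in the Cthrc1 subset (0.30 without the libraries labelled SARAWT PBS 1 and 3) and for Igfbp5 in intercalated cells (0.81 with vehicle library 3 as the only control). Where a lone library was left in a group it was assumed to vary like the others. The alternatives on the labels, gene list and vehicle libraries were chosen after seeing the data. Classes of 10 to 71 cells, such as skin endothelial cells, and single SARATg libraries limit the precision.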
